A study of Homo sapiens with 18 samples.

Results

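Homologous recombination and Fanconi anemia repair genes were followed in thyroid carcinoma cells in which Dicer1, the enzyme that cuts precursor hairpins into mature miRNAs, had been reduced. The 38 genes were listed by name for their roles in repair, with earlier results of these data known but with no measured value in the rule, and were 38 of the 58302 genes in the expression table. All 38 were found there and all 38 passed the filter on low values in both cell lines. They cover end resection and checkpoint kinases (8 genes), the BRCA proteins and their partners (5), strand exchange factors (9), junction dissolution and cleavage (5), the Fanconi core complex and its anchor (8), and the pair of proteins that the core complex ubiquitinates together with their ubiquitin-conjugating enzyme (3).

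Homologous recombination repairs a broken chromosome by copying the undamaged sister, which requires resection of the broken ends, the action of BRCA2 on the resected strand, strand invasion and the resolution of joined molecules. The Fanconi pathway detects DNA strands that are crosslinked to each other, marks the FANCD2 and FANCI proteins with ubiquitin and hands the resulting break to the recombination machinery. Both work mainly during and after DNA replication, and many of their genes are transcribed more strongly in dividing cells.

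Polyadenylated RNA was sequenced in 18 libraries, 3 from each of 6 groups. The lines were TPC1, an established human papillary thyroid carcinoma line with wild-type Dicer1, and D11, 1 monoclonal derivative of TPC1 edited with CRISPR-Cas9 to carry 1 inactivated Dicer1 allele (+/-). Each line was left non-transfected (NT), received a negative control siRNA (NC), or received an siRNA against Dicer1 (siDicer), the siRNAs at 5 nM, and RNA was collected on day 4. NT and NC formed the control group of a line, and because D11 is a single clone, an effect of its genotype and a trait of that clone cannot be told apart. The study's methods say in general that experiments were repeated independently, and do not say whether each library of a group came from its own culture, so the p-values measure the spread between these libraries, which may be partly technical. Sample titles and sample descriptions name different groups for 12 of the 18 libraries. The groups used here are those of the descriptions, which are also the column names of the table. Each group named by the titles mixes NT, NC and siDicer libraries of the descriptions. In each line, DICER1 was lowest in the libraries that the descriptions name siDicer.

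Values are reads per gene scaled by the authors to 20 M aligned reads (M for the prefix mega), and are called values below. The depth recovered from their steps was 11.3 to 23.2 M reads per library, where 1 read is worth 0.861 to 1.77. The lowest value of any member in any library was 39, above the 5.32 that 3 reads are worth at most. DICER1 itself had a lowest, median and highest value of 1397, 1741.5 and 2492 in the TPC1 control libraries, against 255, 395 and 246 in TPC1 siDicer replicates 1 to 3 (log2 change −2.64, SE 0.21, adjusted p = 0.000337). In D11 the control values were 655, 1282 and 1536, against 297, 451 and 277 (−1.77, SE 0.25, adjusted p = 0.000649). No siDicer library reached any control library of its line, and replicate 2 kept the most DICER1 in both lines. Of the thyroid markers, PAX8 had 7361 to 14886 over the 18 libraries while NKX2-1 was listed at 0 in all 18 and TSHR and SLC5A5 did not exceed 2, and of the epithelial markers KRT8 and KRT18 were high and EPCAM did not exceed 6.

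A subset of these genes was lower after Dicer1 siRNA in both lines, and none was called higher. A member was called when its adjusted p was under 0.05 and its fold change at least 1.5. In TPC1, 6 of the 38 members were called lower (15.8%, against 4.16% of all genes tested) and 0 higher (against 3.22%), and in D11, 10 of 38 were called lower (26.3%, against 6.75%) and 0 higher (against 5.26%). BRCA1, BRCA2, RMI1, FANCD2 and UBE2T fell in both lines, BARD1 passed only the TPC1 test, XRCC2, RAD54L, BLM, EME1 and FANCE passed only the D11 test, and 27 members passed neither. UBE2T, the ubiquitin-conjugating enzyme of the Fanconi pathway, had the most negative log2 change of the members in both lines, −0.91 in TPC1 and −1.15 in D11.

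Beyond the called genes, most members lay below their controls by a small amount. The log2 change was negative for 36 of 38 members in TPC1 (54.7% of all genes tested) and for 34 of 38 in D11 (54.3%), with a median over the members of −0.33 and −0.39, against −0.037 and −0.040 over all genes tested. It was positive for 2 members in TPC1 (45.3% of all genes) and 4 in D11 (45.7%). At an adjusted p under 0.05 with no fold change minimum, 11 members were lower in TPC1 (7.94% of all genes) and 21 in D11 (12.8%), and 0 were higher in TPC1 (5.88%) or D11 (9.38%). The 3 siDicer libraries lay below all 6 control libraries for 6 members in TPC1 (9.91% of all genes) and for 16 in D11 (14.1%), and NBN, BRCA1, RMI1, FANCL and UBE2T did so in both lines. They lay above all 6 for 0 members in TPC1 (7.62%) and 0 in D11 (11%). In bulk RNA, fewer cells that express a gene and less RNA per cell cannot be told apart.

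**Figure D1:**
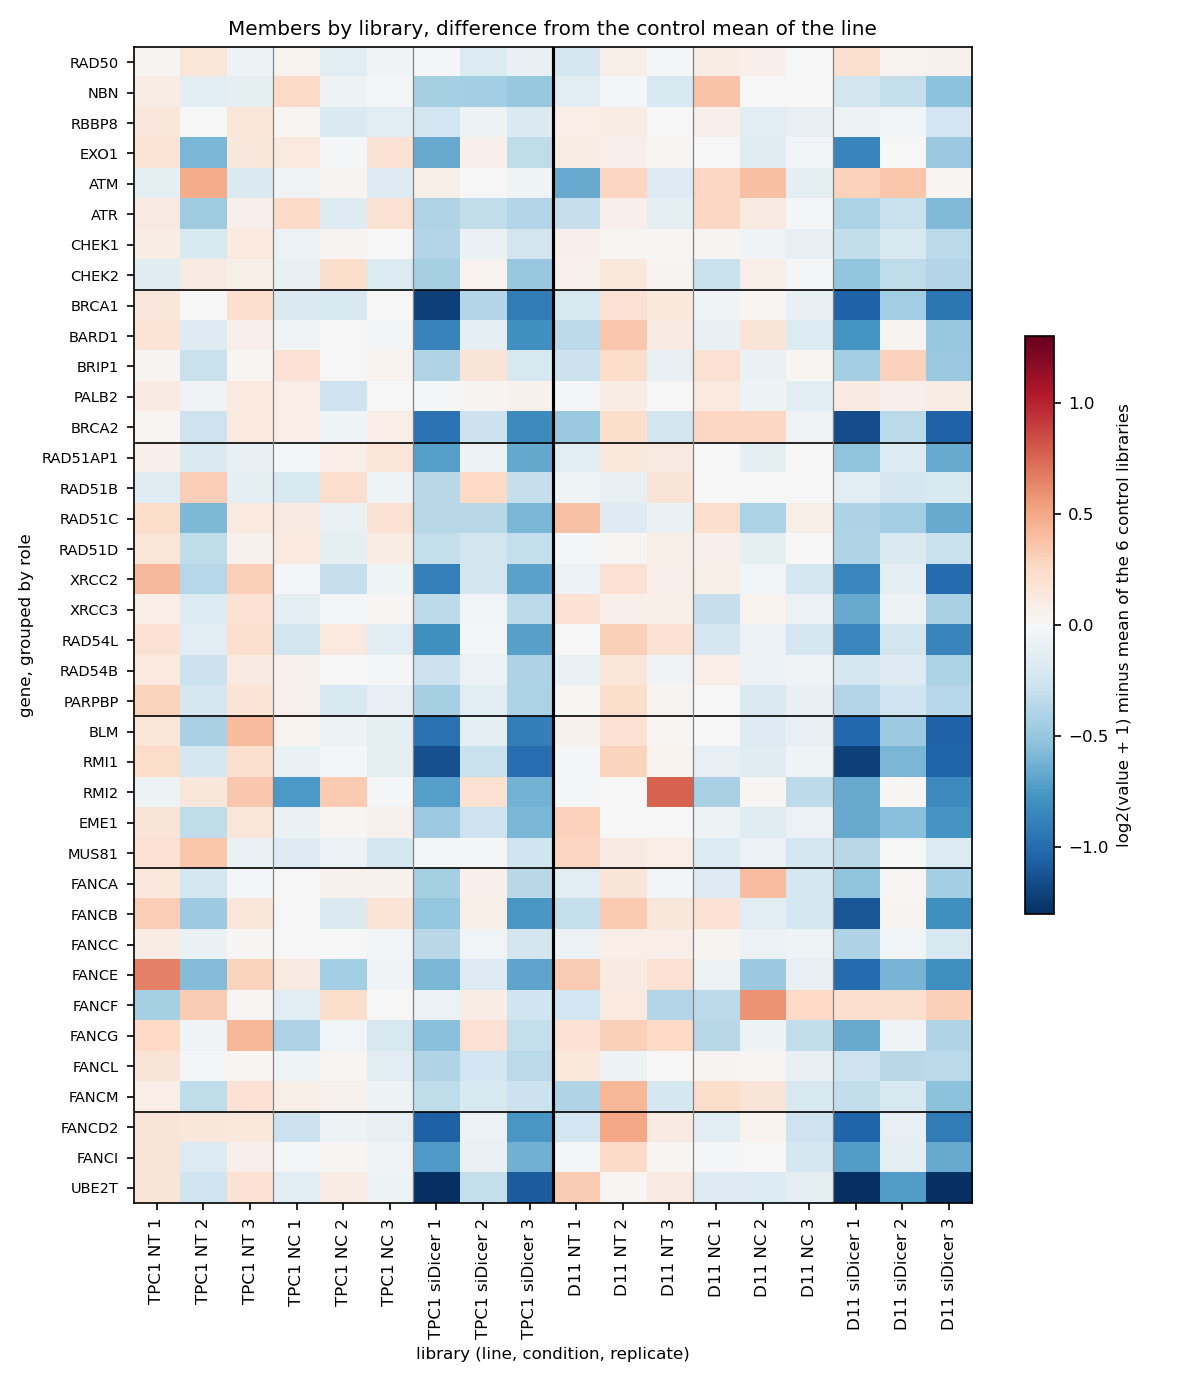
Log2(value + 1) of the 38 members (rows, grouped by role) in the 18 libraries (columns), as the difference from the mean of the 6 control libraries of the same line (blue lower, red higher). The siDicer columns are mostly blue, replicates 1 and 3 more deeply than replicate 2, and the UBE2T, BRCA1 and RMI1 rows are among the darkest.

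The siDicer libraries of a line were not alike, and the count of called members rested on which of them was included. Over the 38 members, the median log2 difference from the control mean was −0.43, −0.081 and −0.40 in TPC1 siDicer replicates 1, 2 and 3, and −0.51, −0.17 and −0.49 in D11. The control libraries also differed from each other. Their medians ran from −0.18 (NT replicate 2) to 0.15 (NT replicate 1) in TPC1. In D11 they ran from −0.0998 (NC replicate 3) to 0.14 (NT replicate 2). By this median, TPC1 NT replicate 2, which received no siRNA, lay below TPC1 siDicer replicate 2. Replicate 2 was the highest of the 3 siDicer libraries for 32 of the 38 members in TPC1 (84.2%, against 43.5% of all genes tested) and for 31 of 38 in D11 (81.6%, against 32.8%). Among the other genes called lower, this share was 76.8% in TPC1 and 61.7% in D11. Replicate 2 was also the siDicer library with the most remaining DICER1, and the part of that difference in the members' values was not tested.

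Without replicate 2, the count rose to 11 members in TPC1 and 15 in D11, and the added ones were RAD51AP1, XRCC2, RAD54L, BLM and FANCI in TPC1 and EXO1, BARD1, RAD51AP1, FANCB and FANCI in D11. Without siDicer replicate 1, or without replicate 3, 0 members were called in TPC1 and 6 in D11. Those 6 were BRCA1, BLM, RMI1, EME1, FANCE and UBE2T in both cases. The share of all genes called lower moved the same way in TPC1, from 4.16% to 1.56% and 1.41% without replicates 1 and 3 and to 6.83% without replicate 2. In D11 it went from 6.75% to 5.19% and 4.27% without replicates 1 and 3 and to 6.995% without replicate 2.

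Against NT alone, 1 member was called lower in TPC1 (BRCA1, with 2.74% of all genes called lower) and 11 in D11 (8.63% of all genes). Against NC alone, 1 was called in TPC1 (BRCA2, with 3.09% of all genes called lower) and 5 in D11 (4.93%). In TPC1, 1 of 38 members is no larger a share than that of all genes, so the excess of called members there was not seen against either control alone. These fits had 3 control libraries in place of 6, and the part of that smaller number in the calls was not tested. The median log2 change over the members in TPC1 was −0.38 against NT alone and −0.31 against NC alone, beside −0.33 with both. The 5 D11 members called against NC alone were BRCA1, BRCA2, BLM, RMI1 and UBE2T.

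BRCA1 and BRCA2 fell together in both lines while their connecting partner PALB2 did not. BRCA1, a ubiquitin ligase that promotes end resection, lies on the minus strand at chr17:43044295-43170245 (GRCh38, ENSG00000012048). Its values were 457, 814 and 567 in TPC1 siDicer replicates 1 to 3, against a lowest, median and highest of 929, 1065 and 1240 in the controls. In D11 they were 507, 770 and 548, against 913, 1046.5 and 1199. The groups did not overlap in either line, and the log2 change was −0.84 (SE 0.16, adjusted p = 0.00946) in TPC1 and −0.82 (SE 0.14, adjusted p = 0.00172) in D11.

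BRCA2, which acts on resected DNA to start strand invasion, lies at chr13:32315086-32400268 on the plus strand (ENSG00000139618). It had 296, 474 and 324 in TPC1 siDicer libraries against 480, 599 and 630 in the controls, so that replicate 2 came within 6 units of the lowest control. In D11 it had 261, 454 and 280 against 415, 623 and 699. There replicate 2 lay above the lowest control library, NT replicate 1. The log2 change was −0.69 (SE 0.15, adjusted p = 0.0132) in TPC1 and −0.85 (SE 0.20, adjusted p = 0.0107) in D11.

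PALB2, the protein that bridges BRCA1 and BRCA2, showed values of 443, 459 and 466 in TPC1 siDicer libraries, inside the control range of 371 to 487. In D11 the siDicer values of 522, 507 and 517 lay inside the range of 437 to 531. Its log2 change was 0.027 in TPC1 (95% confidence interval −0.20 to 0.26) and 0.088 in D11 (−0.13 to 0.30), and the TPC1 estimate turned to −0.035 against NT alone. These intervals exclude the 1.5-fold decrease used as a threshold.

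BARD1, the obligate partner of BRCA1 in its ubiquitin ligase, was called lower in TPC1 (log2 change −0.60, SE 0.16, adjusted p = 0.0283) and had −0.41 in D11 (SE 0.19, adjusted p = 0.133). Leaving out TPC1 NT replicate 1 or NT replicate 3, or siDicer replicate 1 or 3, ended the TPC1 call, and the values without each library ran from −0.84 to −0.46. BRIP1, a helicase that binds BRCA1, had −0.14 in TPC1 and −0.21 in D11, and its siDicer replicate 2 value of 799 in D11 was above all control libraries.

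**Figure D2:**
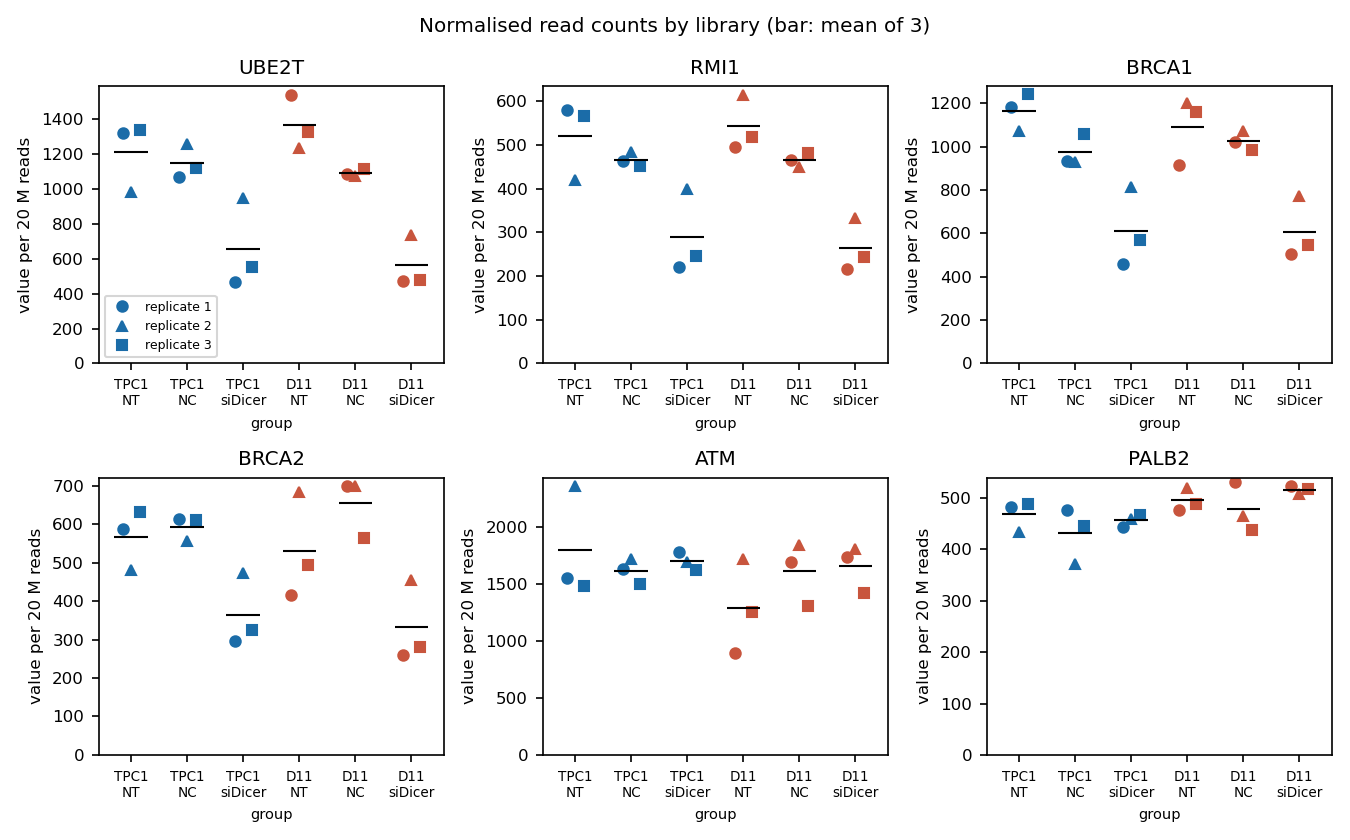
Values (reads per 20 M) of UBE2T, RMI1, BRCA1, BRCA2, ATM and PALB2 in each library (points, with the shape giving the replicate number), with a bar at the mean of the 3 libraries of a group, for TPC1 (blue) and D11 (red). In the first 4 genes replicate 2 (triangle) is the highest siDicer point in both lines, whereas ATM and PALB2 siDicer points lie within the control points.

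Of the 3 genes of the Fanconi ubiquitination step, UBE2T and FANCD2 fell in both lines. UBE2T, at chr1:202331544-202341984 on the minus strand (ENSG00000077152), had 469, 950 and 553 in TPC1 siDicer libraries, against 984, 1189.5 and 1338 in the controls. In D11 it had 472, 738 and 478 against 1077, 1176 and 1538. Groups did not overlap in either line, and the siDicer mean was 55.6% of the control mean in TPC1 (log2 change −0.91, SE 0.19, adjusted p = 0.0128) and 45.8% in D11 (−1.15, SE 0.16, adjusted p = 0.000581). With the groups of the descriptions, the D11 call of UBE2T held in all 20 alternatives, and in TPC1 it was lost against NT or NC alone and without siDicer replicate 1 or 3. With groups from the sample titles, 0 members were called in either line. Those groups mix NT, NC and siDicer libraries, so they could not compare siDicer with controls.

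FANCD2, which is ubiquitinated at stalled forks (chr3:10026370-10101932, plus strand, ENSG00000144554), had 610, 1207 and 756 in TPC1 siDicer libraries against 1050, 1312 and 1429 in the controls. In D11 it had 606, 1155 and 666 against 1035, 1207 and 1768. Replicate 2 lay inside the control range in both lines. Its log2 change was −0.63 (SE 0.19, adjusted p = 0.0446) in TPC1 and −0.69 (SE 0.21, adjusted p = 0.0316) in D11. The TPC1 call was the least stable of the 6 and held without only 2 of the 9 libraries taken out in turn, with values from −0.91 to −0.42. The D11 call was lost without NT replicate 3, siDicer replicate 1 or siDicer replicate 3, with values from −0.97 to −0.51.

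FANCI, the partner of FANCD2 and one of the more abundant members, had 1801, 2826 and 1946 in TPC1 siDicer libraries against 2641, 2980 and 3361, and 1840, 2819 and 1932 in D11 against 2619, 3020.5 and 3631. Only replicate 2 overlapped the controls. Its log2 change of −0.48 in TPC1 (adjusted p = 0.0363) and −0.50 in D11 (adjusted p = 0.0196) passed the p-value and fell short of 1.5-fold.

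Among the genes that take joined molecules apart, RMI1 fell in both lines and BLM and EME1 in D11. RMI1, a subunit of the BLM dissolvasome (chr9:83980798-84004074, plus strand, ENSG00000178966), had 221, 400 and 247 in TPC1 siDicer libraries against 419, 473 and 579 in the controls. In D11 it had 216, 332 and 243 against 450, 488.5 and 615. The groups did not overlap in either line, with a log2 change of −0.81 (SE 0.18, adjusted p = 0.0154) in TPC1 and −0.95 (SE 0.15, adjusted p = 0.00103) in D11.

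BLM, the RecQ helicase that RMI1 binds, had 187, 339 and 196 in TPC1 siDicer libraries against 273, 364.5 and 489, and missed the p-value there (log2 change −0.66, SE 0.21, adjusted p = 0.0614). In D11 its 195, 285 and 191 lay below all control libraries (353, 400 and 454) and it was called (−0.85, SE 0.14, adjusted p = 0.00174). RMI2, the smaller partner of RMI1, was scarce, with control values of 52 to 112 in TPC1 and 52 to 120 in D11, and had log2 changes of −0.38 (SE 0.27) and −0.49 (SE 0.27), neither called.

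EME1, the regulatory subunit of a structure-specific nuclease, had 581, 671 and 537 in TPC1 siDicer libraries against 645, 831.5 and 911 (log2 change −0.44, adjusted p = 0.0357, under 1.5-fold). In D11 it had 563, 607 and 519 against 793, 862.5 and 1090 and was called (−0.65, SE 0.11, adjusted p = 0.00194). MUS81, the catalytic subunit that EME1 binds, had −0.098 in TPC1 (95% confidence interval −0.40 to 0.20) and −0.18 in D11 (−0.46 to 0.10), and the TPC1 estimate was 0.059 against NC alone.

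The strand exchange factors, which help the broken strand to invade its sister, were all negative in both lines. Of the 9, 2 were called, both in D11, where 6.75% of all genes were called lower (4.16% in TPC1). XRCC2, which assists strand exchange, had 261, 408 and 298 in TPC1 siDicer libraries against 374, 472 and 649, and 277, 460 and 248 in D11 against 425, 504.5 and 571. Replicate 2 overlapped the controls in both lines, and the log2 change was −0.61 (SE 0.20, adjusted p = 0.0627) in TPC1 and −0.66 (SE 0.17, adjusted p = 0.0174) in D11. Without TPC1 NT replicate 2 or TPC1 siDicer replicate 2, XRCC2 and BLM were also called in TPC1.

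RAD54L, a motor protein of strand invasion, had 324, 558 and 345 in TPC1 siDicer libraries against 476, 564.5 and 649 (log2 change −0.50, adjusted p = 0.0783). In D11 its 316, 481 and 314 lay below all control libraries (490, 556 and 706), and it was called (−0.65, SE 0.16, adjusted p = 0.0134). RAD51AP1, which stimulates strand invasion, had 365, 574 and 377 in TPC1 against 527, 609 and 668, and 399, 506 and 365 in D11 against 519, 576.5 and 633. It passed the p-value in both lines (adjusted p = 0.0498 and 0.0192) with log2 changes of −0.48 and −0.45, under 1.5-fold.

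The other 6 genes of this group, the related proteins RAD51B, RAD51C, RAD51D and XRCC3, the motor protein RAD54B and the recombination inhibitor PARPBP, had log2 changes of −0.44 to −0.13 in TPC1 and −0.50 to −0.18 in D11, and none was called. RAD51C had the most negative of these and RAD51B the least negative in both lines.

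**Figure D3:**
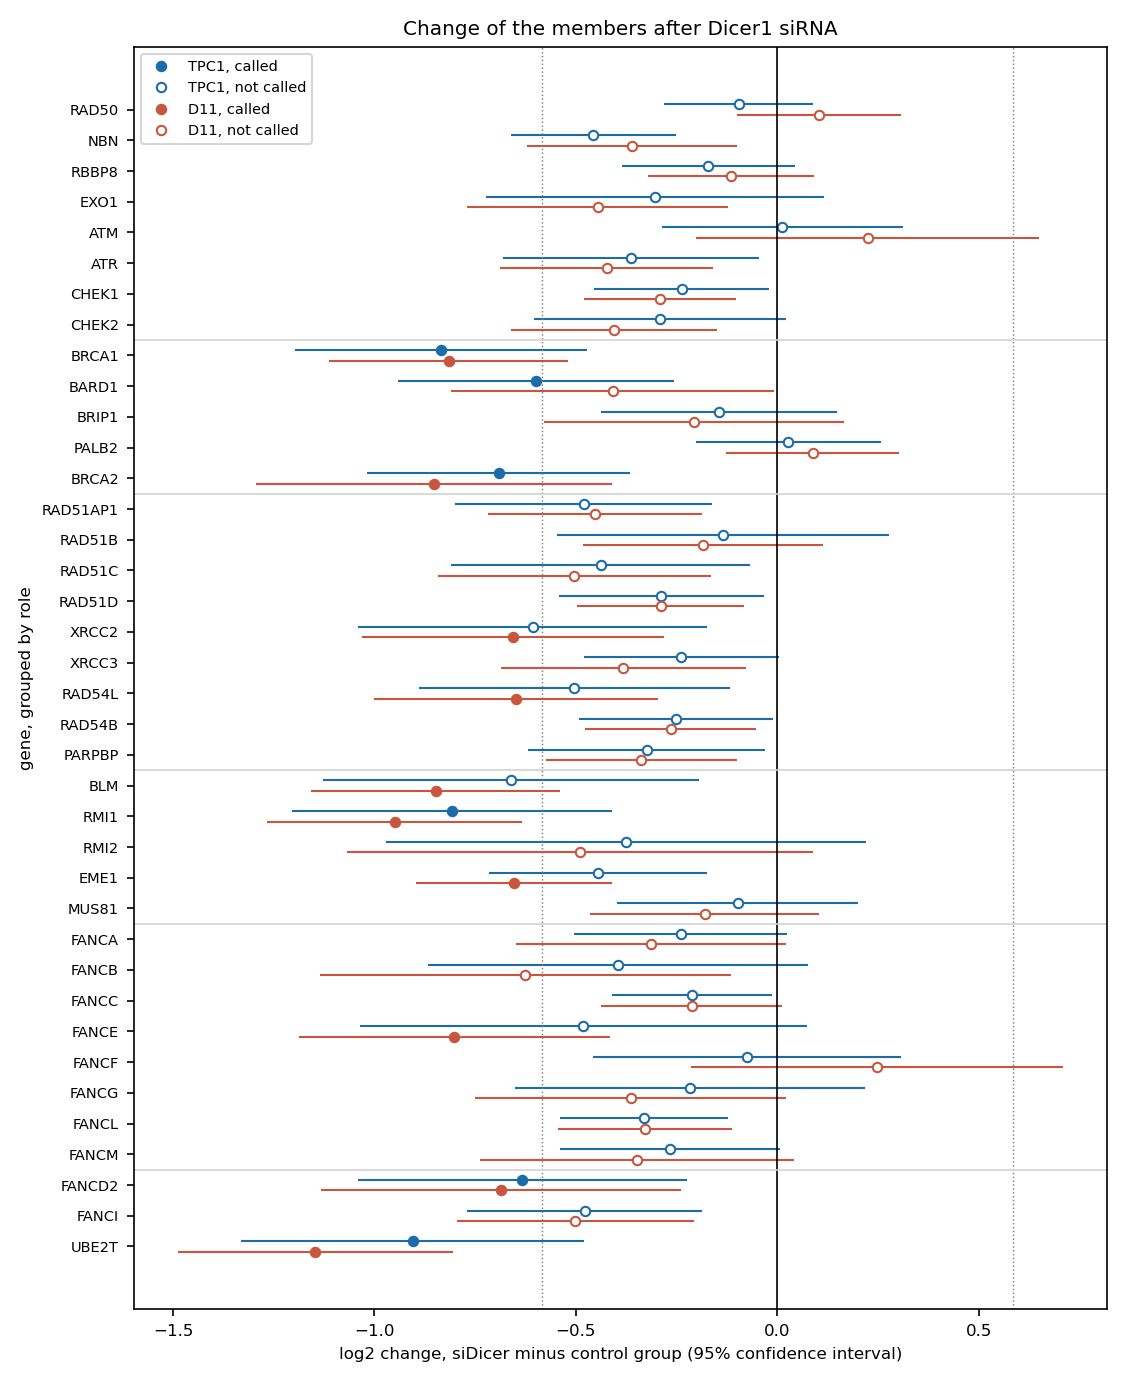
Log2 change (siDicer minus control group, x axis) with its 95% confidence interval (lines) for each of the 38 members (rows, grouped by role) in TPC1 (blue) and D11 (red). Filled points were called, open points were not, and dotted lines mark 1.5-fold. Filled points lie on the left only, and in each row the intervals of both lines overlap.

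The Fanconi core complex, the ubiquitin ligase of the pathway, and its anchor FANCM had 8 members, of which 0 were called in TPC1 and 1 in D11. Counts of 0 and 1 among 8 genes cannot be told apart from the 4.16% and 6.75% of all genes called lower. FANCE, the subunit that contacts FANCD2, was called in D11 with 90, 119 and 104 in siDicer libraries against 130, 185 and 228 in the controls, without overlap (log2 change −0.80, SE 0.18, adjusted p = 0.00736). In TPC1 it had 103, 139 and 97 against 105, 160 and 246, where groups overlapped (−0.48, SE 0.25, adjusted p = 0.226). FANCL, the catalytic subunit, had −0.33 in TPC1 (SE 0.09, adjusted p = 0.0415) and −0.33 in D11 (SE 0.10, adjusted p = 0.0325), under 1.5-fold and with no overlap in either line.

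FANCF, an adaptor subunit, had 117, 132 and 103 in TPC1 siDicer libraries, inside the control range of 91 to 155, and 113, 112 and 120 in D11, inside the range of 74 to 146. Its log2 change was −0.075 in TPC1 (95% confidence interval −0.46 to 0.31) and 0.25 in D11 (−0.22 to 0.71). FANCB had −0.39 in TPC1 and −0.63 in D11 (adjusted p = 0.0745), and was called in D11 with the replicate number as a block (−0.63, adjusted p = 0.0488) and without siDicer replicate 2 (−0.96, adjusted p = 0.0111). FANCA, FANCC, FANCG and FANCM had log2 changes between −0.27 and −0.21 in TPC1 and between −0.36 and −0.21 in D11, none called.

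Of the 8 end resection genes and checkpoint kinases, 0 were called in either line. A count of 0 among 8 genes cannot be told apart from the 4.16% and 6.75% of all genes called lower. At an adjusted p under 0.05 with no fold change minimum, 1 was lower in TPC1 (7.94% of all genes) and 5 in D11 (12.8%). NBN, the subunit of the break-sensing MRN complex that recruits ATM, had 2989, 2970 and 2861 in TPC1 siDicer libraries against 3644, 3921.5 and 4804, and 3391, 3224 and 2768 in D11 against 3484, 3957.5 and 5162. No siDicer library reached a control library in either line. The log2 change of −0.46 in TPC1 (SE 0.09, adjusted p = 0.0107) and −0.36 in D11 (SE 0.12, adjusted p = 0.0482) was precise and under 1.5-fold.

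RAD50, the ATPase of the same complex, had 1733, 1545 and 1640 in TPC1 against 1588, 1748 and 1957, and 1841, 1648 and 1664 in D11 against 1372, 1635 and 1706. Its log2 change was −0.096 in TPC1 (95% confidence interval −0.28 to 0.088) and 0.10 in D11 (−0.10 to 0.31). RBBP8, which starts resection, had −0.17 and −0.12, and EXO1, which extends it, −0.30 (adjusted p = 0.316) and −0.45 (adjusted p = 0.0492).

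ATM, the kinase that responds to double-strand breaks, had 1783, 1697 and 1627 in TPC1 siDicer libraries against 1486, 1594 and 2363, and 1742, 1808 and 1423 in D11 against 895, 1500.5 and 1846. All 6 siDicer values lay inside the control range, with a log2 change of 0.012 in TPC1 (95% confidence interval −0.29 to 0.31) and 0.22 in D11 (−0.20 to 0.65), and the TPC1 estimate was −0.051 against NT alone.

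ATR, the kinase that responds to stalled forks, had 1102, 1162 and 1110 in TPC1 against 1050, 1540 and 1726, and 1128, 1222 and 1009 in D11 against 1216, 1518 and 1799. The groups overlapped through 1 control library in each line, NT replicate 2 in TPC1 and NT replicate 1 in D11. Its log2 change was −0.36 (adjusted p = 0.115) in TPC1 and −0.42 (adjusted p = 0.0263) in D11.

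CHEK1, the kinase downstream of ATR, had 788, 967 and 870 in TPC1 against 897, 1043 and 1122, and 831, 898 and 816 in D11 against 965, 1053.5 and 1088. The log2 change was −0.24 (adjusted p = 0.13) in TPC1 and −0.29 (adjusted p = 0.0304) in D11, where the groups did not overlap. CHEK2, the kinase downstream of ATM, had 316, 440 and 302 in TPC1 against 377, 424.5 and 499, and 279, 316 and 306 in D11 against 324, 410.5 and 438. Its log2 change was −0.29 (adjusted p = 0.193) and −0.41 (adjusted p = 0.0272), again without overlap in D11 only.

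The response did not differ detectably between the parental line and the heterozygous clone. In the test of the difference over 18 libraries, 0 of 38 members were called (0% of all 19181 genes tested), 0 had an unadjusted p under 0.05 (0.693% of all genes), and the smallest unadjusted p was 0.114 for RAD50. That share of all genes is below what the threshold gives by chance, so the test was conservative. DICER1 was left at 15.9% of its control mean in TPC1 and 28.8% in D11. Its difference was 0.88 (95% confidence interval 0.13 to 1.62), and it was not called. The part of this unequal knockdown in the comparison was not tested. The intervals of the difference were wide and ran from −0.99 to 0.91 over the members. For UBE2T the D11 change minus the TPC1 change was −0.24 (95% confidence interval −0.79 to 0.31) and for BRCA1 0.019 (−0.45 to 0.49), so that the passing of XRCC2, RAD54L, BLM, EME1 and FANCE in D11 only was not shown to be a difference between lines.

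In the control libraries, no member differed detectably between the heterozygous clone and its parent. D11 against TPC1 gave 0 called members (0.872% of all genes called lower and 0.144% higher), and 0 of 38 members had an unadjusted p under 0.05 (9.85% of all genes), while DICER1 was lower in D11 (log2 change −0.68, SE 0.12, adjusted p = 0.00561). The log2 difference ran from −0.34 for FANCF (95% confidence interval −0.72 to 0.033) to 0.22, with a median over the members of 0.0045.

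The control siRNA itself called 0 members against no transfection in TPC1 (0.0777% of all genes called lower, 0.0333% higher) and 0 in D11 (0.2% and 0.15%). At an unadjusted p under 0.05, 4 members passed in TPC1 (11.1% of all genes), BRCA1, MUS81, FANCG and FANCD2, and 5 in D11 (13.6%), RAD54L, MUS81, FANCE, FANCG and UBE2T. All of these were lower in NC than in NT, by log2 −0.26 for BRCA1 and −0.30 for FANCD2 in TPC1 and by −0.32 for UBE2T and −0.51 for FANCG in D11. DICER1 was higher in NC than in NT, by 0.58 in TPC1 (adjusted p = 0.133) and 0.71 in D11 (adjusted p = 0.153), so neither passed.

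Levels per length, the mean control value divided by the length of the canonical transcript in kb, spanned a wide range. UBE2T had the most, 1347 per kb in TPC1 and 1401 in D11, followed by NBN with 877 and 873 and FANCI with 634 and 648. FANCF had the least, 37.9 and 30.3, with FANCM (39.7 and 38.8), FANCB (44.5 and 46.3) and BRCA2 (48.4 and 49.5) next to it. The median over the members was 182 per kb in TPC1 and 186 in D11. The called members stood at both ends of this order.

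Promoter sequence was read for the members because several of them fell together, and 4 windows are printed, those of the 3 genes called in both lines that held E2F or CHR letters and, for contrast, that of PALB2. RefSeq windows of 250 bases before to 50 bases after a start site (GRCh38.p14) were found for 34 of the 38 members, and FANCI, NBN, RAD54B and RMI2 had no entry. On either strand, the searched letters were TTTGGCGC, TTTCCCGC, TTTGCCGC or TTTCGCGC for an E2F site, TTTGAA or TTCGAA for a CHR (cell cycle genes homology region), and CCAAT for a CCAAT box. The windows below show 160 bases before and the first 10 bases after the start, 5′ to 3′ on the gene's strand, with these letters in capitals.
UBE2T, chr1:202341927-202342096, minus strand: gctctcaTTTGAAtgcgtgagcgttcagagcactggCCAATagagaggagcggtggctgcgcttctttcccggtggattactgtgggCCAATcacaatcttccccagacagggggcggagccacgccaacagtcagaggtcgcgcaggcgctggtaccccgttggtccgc
RMI1, chr9:83980645-83980814, plus strand: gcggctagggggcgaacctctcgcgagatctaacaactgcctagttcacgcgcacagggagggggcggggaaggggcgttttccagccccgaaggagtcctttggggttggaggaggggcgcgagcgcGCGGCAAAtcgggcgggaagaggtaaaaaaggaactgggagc
FANCD2, chr3:10026277-10026446, plus strand: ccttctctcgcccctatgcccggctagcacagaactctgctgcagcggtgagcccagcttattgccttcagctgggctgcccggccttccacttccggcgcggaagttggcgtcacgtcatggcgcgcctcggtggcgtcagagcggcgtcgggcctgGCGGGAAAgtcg
PALB2, chr16:23641301-23641470, minus strand: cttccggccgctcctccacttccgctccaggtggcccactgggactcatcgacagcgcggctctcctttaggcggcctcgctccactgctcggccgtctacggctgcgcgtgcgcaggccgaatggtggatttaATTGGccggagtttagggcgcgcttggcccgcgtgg

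The first base of a match, counted with the start site as 0, was at −153 for the CHR letters and at −124 and −73 for the CCAAT letters of UBE2T. The E2F letters began at −32 in RMI1 and at −2 in FANCD2, and the CCAAT letters at −26 in PALB2. The E2F letters occurred in 6 of the 34 members with an entry (EXO1, XRCC2, RMI1, FANCA, FANCC and FANCD2) and in 3.31% of all 35116 promoters, or 3.99% of genes when any of a gene's promoters counted. Of these 6, RMI1 and FANCD2 fell in both lines, XRCC2 in D11, and EXO1, FANCA and FANCC in neither. The CHR letters occurred in 5 members (19.5% of genes) and the CCAAT letters in 17 (39.7% of genes), among them BRCA1, RMI1 and UBE2T but also ATM and PALB2. For RMI1 they lay in another of its promoters than the one printed. Of the other genes called in both lines, BRCA1 held only CCAAT letters and BRCA2 held none of the searched letters. A match is a stretch of letters and was not tested as a binding site.

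Other genes of the same processes were read from lists named for their function. For the counts here and below, 4.16% of all genes tested were called lower and 3.22% higher in TPC1. In D11 these shares were 6.75% and 5.26%. Of 53 other recombination and crosslink repair genes tested, TPC1 had 5 lower calls and D11 had 8, with 0 and 1 called higher, and the medians were −0.24 and −0.33. SWI5, a recombination mediator, fell in both lines, with log2 changes of −0.86 in TPC1 and −1.15 in D11. CENPS, a partner of FANCM at forks, fell in D11 (−0.68) and had −0.45 in TPC1 (adjusted p = 0.057).

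Other checkpoint genes (18 tested) gave 1 lower call in TPC1 and 4 in D11, and end joining genes (15 tested) gave 1 in each line, LIG4, the ligase of that pathway, with log2 changes of −0.94 and −1.06. Mismatch repair genes (7 tested) had 0 calls in either line at medians of −0.20 and −0.26. Nucleotide excision repair genes (17 tested) had 0 lower calls, 1 higher call in each line and medians of −0.021 and −0.084, and base excision repair genes (18 tested) had 1 and 2 lower calls at medians of −0.18 and −0.29. In lists of this size, counts of 0, 1 or 2 cannot be told apart from the shares of all genes.

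Proliferation markers moved with the members. All 22 had a negative log2 change in both lines, with medians of −0.47 and −0.63, and 5 passed as lower in TPC1 against 14 in D11, among them AURKA (−0.90 and −1.11), CCNB1 (−0.77 and −1.01) and PLK1 (−0.73 and −0.97), which drive mitosis. Of 18 E2F and DREAM regulators, which govern cell cycle transcription, 3 were called lower in each line, and E2F2 (−1.19 and −1.24) and E2F8 (−1.07 and −1.15) were called in both. The part of proliferation in the members' changes was not tested.

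Of the 6 fibroblast markers, 3 were tested in TPC1 and 2 in D11, and 2 and 1 of them were called. The summed level of 6 genes was 186 to 266 in TPC1 controls and 385 to 796 in TPC1 siDicer libraries, and 55 to 133 and 151 to 253 in D11. LUM and PDGFRB were called higher in TPC1 and PDGFRB in D11. COL1A1, with 35 to 134 over the libraries, was called in neither line. DCN was at 0 in all 18 libraries and COL1A2 and COL3A1 did not exceed 2. Many of the other markers failed the filter on low values and could not be called. In TPC1, 4 of 8 thyroid, 3 of 6 epithelial, 2 of 6 immune and 0 of 4 endothelial markers were tested. In D11 these numbers were 4, 3, 1 and 0. Of the markers tested, KRT7 was called higher in TPC1, HHEX was called lower in D11, and no other was called. The part of these markers in the members' changes was not tested.

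**Figure D4:**
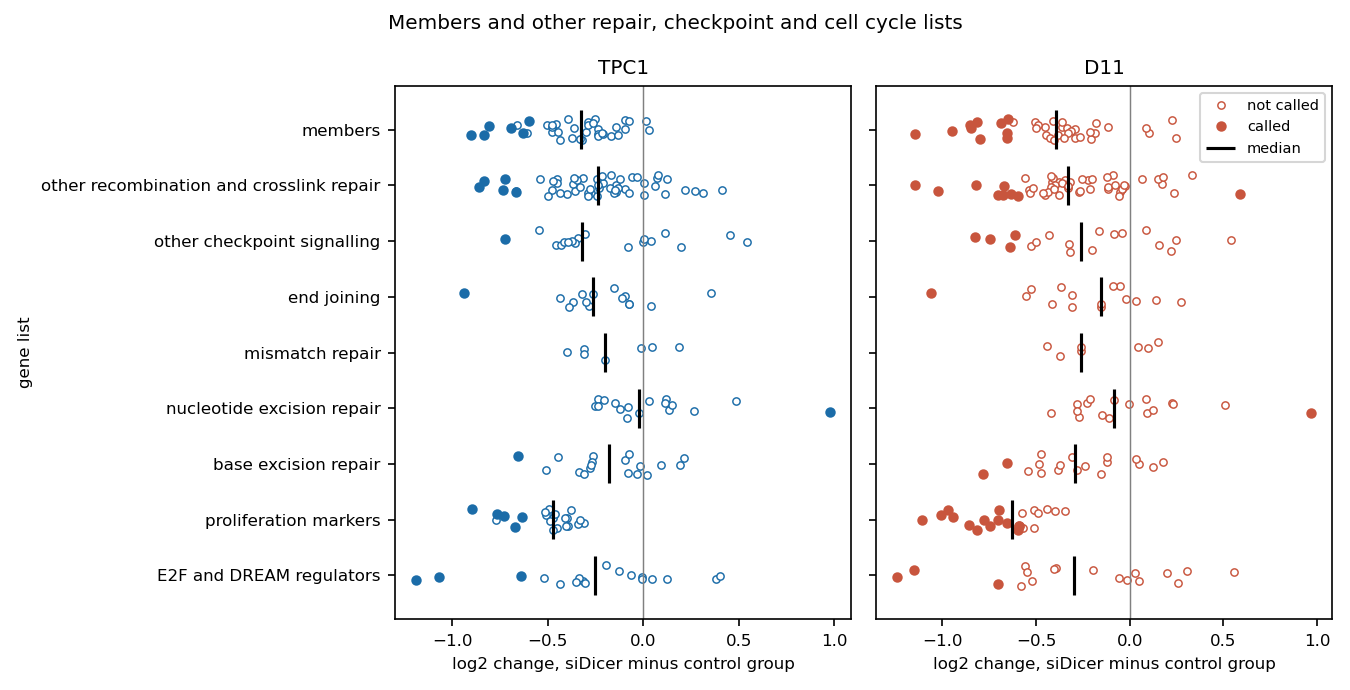
Log2 change (siDicer minus control group, x axis) of every tested gene of the 38 members and of the other lists (rows), in TPC1 (left, blue) and D11 (right, red). Filled points were called, open points were not, and black bars mark medians, which lie at −0.33 and −0.39 for the members, −0.47 and −0.63 for the proliferation markers and −0.021 and −0.084 for nucleotide excision repair.

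Overlapping annotation limits some of these values, because the strand setting of the counting was not stated. In GENCODE 44, 28 of the 38 members share exonic bases with another gene, and 8 share over 10% of their exonic bases, namely RAD50 (79.2%), XRCC3 (76.7%), RAD54B (66%), RAD54L (19.9%), FANCA (19.6%), EME1 (16.4%), CHEK1 (14.4%) and MUS81 (14.1%). BARD1, BRCA2, RMI1, XRCC2, FANCE and UBE2T share none.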

How the data were processed

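With STAR 2.5.3a the authors mapped read pairs to GRCh38, then counted reads per gene of Ensembl 90 with HTSeq 0.9.1 and normalised each library to 20 M aligned reads. The deposited table holds this normalised score, rounded up to whole numbers, for 58302 genes. It is not a read count, so a count test could not be used as the main test. Column totals were 20010707 to 20018484. In 16 libraries the values skip whole numbers in regular steps that gave back whole reads for 99.88% to 99.99% of values up to 3000, and in TPC1 siDicer replicates 1 and 3 reads came back only approximately. The worth of 3 reads covers counting error only, and confidence intervals are those of limma over libraries.

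Values were taken as log2(value + 1), a scale that understates the change of low genes. Genes that reached 10 in 3 or more libraries of a fit were tested with limma 3.58.1 (limma-trend) in R 4.3.3, in place of the count-based test named in the study's methods, with Benjamini-Hochberg adjustment over all genes tested. Calls needed both an adjusted p under 0.05 and 1.5-fold. All tests were two-sided. The method was tested on simulated data before use. The siDicer libraries of a line (n = 3) were compared with its NT and NC libraries (n = 6), NC with NT, D11 with TPC1 in the 12 control libraries, and the changes of both lines over 18 libraries. In a chi-square comparison, the 18 pairs of replicates within groups all differed by more than sampling noise, so none was a repeated library.

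The members, the other gene lists and the motifs were chosen with earlier results of these data known, although the rule for the members names genes and uses no measured value. Values by library are given for DICER1, for BRCA1, BRCA2, ATM, ATR, CHEK1, CHEK2, FANCD2 and FANCI as central genes, for the 10 members with the smallest p in D11 and the 5 in TPC1, and for the 3 most positive in each line. BRIP1, RMI2, FANCB and other members named beyond these are described by their log2 change, and single values given for them were chosen after they were seen. Of each other list, at most the 3 genes with the smallest p in D11 are given. LIG4, REV3L, LUM, PDGFRB, KRT7, HHEX and the promoters printed were singled out after their values were seen.

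Replicate numbers in the descriptions were checked as a pairing. In D11 all 9 same-number pairs of groups had a correlation of deviations from the group means above 0.1 (0.108 to 0.504), which is taken as a pairing of D11 libraries that comes from the data and not from a stated batch. The main D11 fits did not use this pairing. The fit with the replicate number as a block is given as an alternative. Positions are from GENCODE 44 (GRCh38), which matched 57532 of the 58302 identifiers. Promoters are RefSeq's. Figures were drawn with matplotlib 3.10.9. Some items are not reported here.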

Additional observations from a re-analysis of the deposited data

Results flagged for a closer look

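Among 78 pairs of a gene and a control group of 6 libraries, 5 had a library that stood apart from the others of its group by Dixon's test, where chance gives about 1 group in 20. EXO1 was low in TPC1 NT replicate 2, at 885 against 1315 to 1523 in the other control libraries (the gap was 0.674 of the group's range). ATM was high in the same library, at 2363 against 1486 to 1724 (0.729). NBN was high in D11 NC replicate 1, at 5162 against 3484 to 4014 (0.684). RMI2 was high in D11 NT replicate 3, at 120 against 52 to 71 (0.721). EME1 was high in D11 NT replicate 1, at 1090 against 793 to 883 (0.697).

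RAD50 lay below the control mean in each TPC1 siDicer library and above it in each D11 siDicer library, with a difference of 0.20 between the log2 changes. The test of that difference gave an unadjusted p of 0.114 and an adjusted p of 0.9998 in limma.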

How the results depend on the processing

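The counts of members called lower (6 for TPC1, 10 for D11) became 11 and 21 without a fold change minimum. They became 1 and 11 against NT alone (2.74% and 8.63% of all genes), and 1 and 5 against NC alone (3.09% and 4.93%). With groups taken from the sample titles they became 0 and 0, but those groups mix NT, NC and siDicer libraries and could not test the siRNA. Leaving out single libraries gave counts of 0 to 11 for TPC1 and of 6 to 15 for D11, the extremes coming from the siDicer libraries. The median log2 change then ran from −0.44 to −0.27 in TPC1 and from −0.51 to −0.35 in D11. Median-of-ratios scaling gave 4 (BARD1 and FANCD2 were lost) and 10, voom on the recovered reads 6 and 10, and a fit of all 18 libraries 8 and 10. Single genes were followed with the groups of the descriptions only. No member was called higher under any alternative, and the comparisons between lines and between NC and NT kept 0 calls under every alternative run. Near 0, the sign turned in TPC1 for ATM (−0.0507 against NT alone and −0.0251 to 0.109 without single libraries), PALB2 (−0.0348 against NT alone and −0.0263 to 0.0520 without single libraries), MUS81 (0.0588 against NC alone) and FANCF (−0.163 to 0.0141 without single libraries). The cause was not tested.

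With the replicate number as a block, 6 members of TPC1 and 11 of D11 passed as lower, FANCB being the addition, and the block changed no other call of a member. In TPC1, 8 of 9 same-number pairs correlated above 0.1 (0.0994 to 0.542, against −0.526 to 0.195 for different numbers), so 1 pair narrowly missed the requirement that every pair exceed 0.1, and no pairing was taken there. TPC1 NC and siDicer replicate 3 correlated more with NT replicate 1 (0.171 and 0.195) than with NT replicate 3 (0.119 and 0.0994). Depth limits the scarcest members most, such as RMI2 with a value of 39 in D11 siDicer replicate 3.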

Other observations

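Not all repair genes moved downward. ERCC6, a transcription-coupled repair factor, was called higher in both lines, from a mean value of 934 ± 106 (SD, n = 6) to 1841 ± 251 (SD, n = 3) in TPC1 (log2 change 0.98, SE 0.12, adjusted p = 0.00106 in limma) and from 884 ± 107 to 1721 ± 62.2 in D11 (0.97, SE 0.11, adjusted p = 0.000216). REV3L, the catalytic subunit of a translesion polymerase that acts in crosslink repair, was called higher in D11 (0.59, SE 0.18, adjusted p = 0.033). WEE1, a kinase that holds cells before mitosis, was 0.54 higher in both lines (adjusted p = 0.00447 in TPC1 and 0.00273 in D11), under 1.5-fold.

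Both subunits of the Ku end joining complex lay below their controls by less than 1.5-fold. XRCC5 had log2 changes of −0.27 in TPC1 (adjusted p = 0.0603) and −0.31 in D11 (adjusted p = 0.0106), and XRCC6 had −0.28 and −0.36. RNF168, a ubiquitin ligase of the break response, fell in both lines (−0.73 and −0.74), and so did NEIL3, a glycosylase that opens some crosslinks (−0.66 and −0.66).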
